A study of Mus musculus with 6 samples.

Results

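A set of 9 genes that control how NOTCH receptors and their ligands are ubiquitinated and taken into the cell, outside the NEDD4 family of ubiquitin ligases, was followed in RNA of mouse spleen: Cbl, Cblb, Mib1, Mib2, Neurl3, Numb, Numbl, Aak1 and Fbxw7. They were taken by name from a table of 40808 gene IDs, as a set proposed with earlier results of these data known. The RNA came from spleen leukaemia cells of mice that had received a bone marrow transplant, 3 libraries labelled as not given Dox (replicates 4, 5 and 6) and 3 labelled as given Dox (replicates 10, 11 and 12). The labels do not spell out Dox and do not give its dose or duration, the gene it controls, the transgene, its promoter, or the strain, age and sex of donors and hosts. They do not say whether each library came from its own mouse, so p-values here measure the spread between these libraries. By the series' title, the study concerns ubiquitination of NOTCH and its control by UVRAG, ITCH and ESCRT proteins.

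NOTCH signalling starts when a ligand on one cell is pulled into that cell by endocytosis, which strains the bound receptor on its neighbour and exposes it to cleavage. Mindbomb and Neuralized ligases put ubiquitin on the ligand for this step, whereas CBL ligases and the adaptor NUMB, on the receiving side, are known to steer receptors toward internalization and degradation. After cleavage the receptor's intracellular part works in the nucleus, where FBXW7, a substrate receptor of an SCF ubiquitin ligase, marks it for the proteasome. FBXW7 also acts on MYC, and its loss of function by mutation is frequent in T cell leukaemia.

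The promoter letters of Cbl and Neurl3 are shown because these genes moved in opposite directions between the groups and lie in promoters of different composition. Both windows hold the 250 bases before a RefSeq transcript start (assembly GRCm38.p6), both genes lie on the minus strand, and capitals mark a motif match.
Cbl, chr9:44234047-44234296, 71.6% G or C: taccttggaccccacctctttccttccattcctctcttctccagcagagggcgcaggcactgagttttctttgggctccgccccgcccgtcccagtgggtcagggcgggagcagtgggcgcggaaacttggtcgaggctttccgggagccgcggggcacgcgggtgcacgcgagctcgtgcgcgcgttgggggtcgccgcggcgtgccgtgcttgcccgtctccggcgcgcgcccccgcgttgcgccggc
Neurl3, chr1:36273426-36273675, 50.4% G or C: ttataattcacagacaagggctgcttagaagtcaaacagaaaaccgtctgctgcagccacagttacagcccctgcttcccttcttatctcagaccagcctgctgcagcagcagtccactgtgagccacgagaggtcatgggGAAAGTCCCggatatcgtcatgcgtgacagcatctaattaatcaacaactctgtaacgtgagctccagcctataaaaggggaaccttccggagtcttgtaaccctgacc

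Such windows, 14 of them for the 8 members with an entry, were searched on both strands for 4 motifs. These were TGGGAA, the core bound by the NOTCH partner RBPJ, CACGTG, the E-box bound by MYC, GAGGAAGT, a PU.1-type ETS site, and GGGNNTTTC, an NF-kB type site. The NF-kB type letters occurred in 1 member window, that of Neurl3, starting 109 bases before the transcript start, and in 3.72% of 32851 windows of the same length over all genes. The RBPJ core occurred in 3 member windows, 1 of Cblb and 2 overlapping ones of Aak1, and in 21.6% of all windows. The ETS letters occurred in 1 of the Numb windows against 2.44% of all windows, and the E-box in 0 member windows against 6.02% of all. The 4 motifs were chosen after the members' changes were seen. The NF-kB type motif was also shortened by its last base after its match was seen. Its match in Neurl3, beside the share of all windows, is therefore a description and not a test. A match describes letters and is not evidence of binding.

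Total counts were 5541486 to 7729988 without Dox and 6498193 to 8725767 with Dox, so that 3 counts corresponded to 0.344 to 0.541 CPM (counts divided by the library total and multiplied by 1e6) before scaling. Such floors cover counting error only, and whether the reads are independent molecules is not known, since molecular identifiers are not given. Low counts behaved differently between the groups: between 2 and 30 counts, the count shared by the largest number of genes was 2, 2 and 3 in the libraries without Dox, and 5, 15 and 7 with Dox. For means of 20 to 100 counts, the ratio of variance to mean over replicates was 4.69 in the group without Dox and 15.6 in the group with Dox. A low count with Dox therefore carried less precision than the same count without it. The Y-linked genes Uty, Kdm5d, Eif2s3y and Ddx3y summed to 545 to 801 counts without Dox and to 0 in each Dox library, and Xist had 193 to 324 counts without Dox and 3347 to 5669 with it. Dox and a difference in the sex or origin of the cells cannot be told apart in these libraries, which holds for the Dox difference of each gene given here.

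Of the 9 members, 8 passed the filter on low counts, and 4 of these passed the test between groups (quasi-likelihood F-test of edgeR with Benjamini-Hochberg adjustment over 14110 genes, threshold 0.05). Neurl3 was 9.14-fold higher with Dox, Cbl and Mib1 fell to 0.589 and 0.442 of their level without Dox, and Numbl was nearly absent from the Dox libraries. Cblb, Mib2, Aak1 and Fbxw7 did not pass the test. Across all tested genes 45.6% passed, 23.6% higher and 22.1% lower with Dox, so the members' share lay near that of genes at large. Of all genes called, 51.6% were higher, and 64.3% with scaling by library size only. Groups did not overlap for the same 4 members, against 59.6% of all tested genes. The median log2 fold change was 0.00 over the 8 members and 0.07 over all tested genes. Numbl and Neurl3 passed the filter only through the group in which each was high (0 of 3 Dox libraries reached the filter's level for Numbl, and 2 of 3 libraries without Dox for Neurl3), so these counts are a description.

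**Figure D1:**
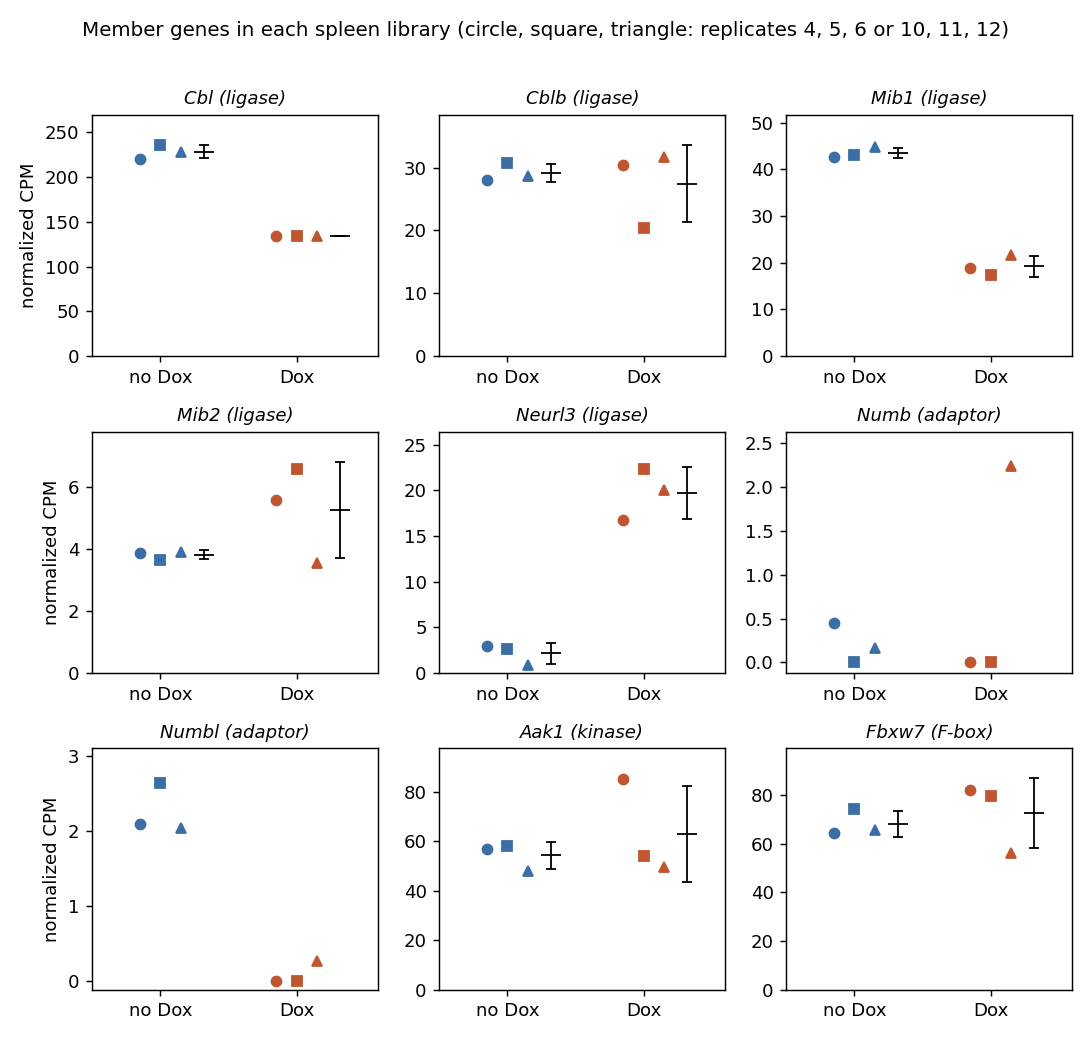
TMM-normalized CPM (vertical axes) of the 9 members in each library without Dox (blue) and with Dox (orange); black bars are means ± SD of 3 libraries, left out for Numb and Numbl, which had few counts. Cbl and Mib1 are lower and Neurl3 higher in every Dox library, while the points of Cblb, Mib2, Aak1 and Fbxw7 overlap between groups.

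Cbl (Entrez gene 12402, chromosome 9, 44142976 to 44234259, GRCm38.p6) encodes a RING ubiquitin ligase that binds tyrosine-phosphorylated receptors and kinases and sends them to degradation. In the libraries without Dox its CPM, here and in what follows corrected with TMM factors, was 221, 236 and 228, and in those given Dox it was 134, 135 and 134, from 987 to 1480 counts. Each Dox library lay below each library without Dox, and the spread within either group was small beside the gap. The means were 228 ± 7.4 and 134 ± 0.41 CPM (n = 3 per group, SD), which is a log2 fold change of -0.76 ± 0.14 (SE, 95% interval -1.09 to -0.44, adjusted p = 0.00186 by edgeR). A change at least this large in either direction was seen in 61.9% of tested genes. The log2 fold change was -0.45 with scaling by library size only and -1.67 after removal of a trend with transcript length, and it passed the threshold in both fits.

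Cblb (Entrez gene 208650, chromosome 16, 52031230 to 52208047) encodes the paralog CBL-B, a ligase best known as a brake on T cell activation. It measured 28.1, 30.8 and 28.7 CPM without Dox and 30.4, 20.4 and 31.6 CPM with Dox. The group with Dox spanned the group without it, and its low value came from replicate 11. The log2 fold change was -0.09 ± 0.25 (SE), with a 95% interval of -0.65 to 0.48 and an adjusted p-value of 0.797 (edgeR). Its sign changed to 0.22 with scaling by library size only, and with the length trend removed it was -0.63 with an adjusted p-value of 0.0632 (edgeR).

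Whether the CBL paralogs differed in their change was asked within each library, where the log2 ratio of Cblb to Cbl counts does not depend on scaling between libraries. That ratio was -2.97, -2.93 and -2.99 in the group without Dox and -2.14, -2.72 and -2.08 in the Dox libraries. It was higher by 0.65 in the Dox libraries, with no overlap between groups (p = 0.1 in an exact two-sided permutation test, the smallest that 3 against 3 allows, and 0.1 after Benjamini-Hochberg adjustment over 3 paralog pairs, with that of Numbl and Numb included).

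Mib1 (Entrez gene 225164, chromosome 18) encodes Mindbomb 1, the ligase that ubiquitinates DLL and JAG ligands and allows them to be endocytosed by the cell that sends the signal. It measured 42.7, 43.2 and 44.8 CPM without Dox and 18.8, 17.3 and 21.6 CPM with Dox. All 3 Dox libraries lay under the lowest library without Dox. Its mean went from 43.5 ± 1.1 to 19.2 ± 2.2 CPM (n = 3 per group, SD), which is a log2 fold change of -1.18 ± 0.22 (SE, 95% interval -1.67 to -0.69, adjusted p = 0.00176 by edgeR). With the length trend removed the log2 fold change was -2.02.

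Mib2 (Entrez gene 76580, chromosome 4, 155654468 to 155669254), the paralog of Mib1, gave only 18 to 26 counts without Dox and 27 to 64 with Dox. This is 3.88, 3.65 and 3.90 CPM in the former group and 5.58, 6.59 and 3.56 CPM in the latter. Replicates 10 and 11 lay above the group without Dox and replicate 12 lay below it. The log2 fold change of 0.46 ± 0.58 (SE) had a 95% interval of -0.83 to 1.75 and an adjusted p-value of 0.547 (edgeR), so its direction was not resolved at this depth. Within libraries the log2 ratio of Mib2 to Mib1 counts was -3.43, -3.53 and -3.49 in the group without Dox and -1.74, -1.39 and -2.58 in the Dox libraries. This ratio was higher in each Dox library, by 1.58 on average (p = 0.1 by the same exact permutation test, and 0.1 adjusted over the 3 pairs).

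Neurl3 (Entrez gene 214854, chromosome 1, 36264602 to 36274674) encodes a RING ligase with a Neuralized domain that is known to be induced in inflammation. The libraries without Dox had 20, 13 and 5 counts, or 2.98, 2.64 and 0.848 CPM. Those given Dox had 123, 217 and 152 counts, or 16.74, 22.33 and 20.03 CPM. The lowest Dox library was above the highest library without Dox by several fold. The means were 2.16 ± 1.2 and 19.7 ± 2.8 CPM (n = 3 per group, SD), which is a log2 fold change of 3.18 ± 0.48 (SE, 95% interval 2.10 to 4.26, adjusted p = 0.000513 by edgeR). Only 8.07% of tested genes changed by as much in either direction. Because Neurl3 entered the test through its high group, its adjusted p is given as a description. Without a low-count filter, where every gene with a count in any library enters, the log2 fold change was 3.02 with an adjusted p-value of 2.4e-07 (edgeR), and over the 17 alternatives that tested it adjusted p-values ran from 2.36e-08 to 0.00362. With at least 10 counts required in every library it was not tested, because replicate 6 without Dox had 5 counts.

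Numb (Entrez gene 18222, chromosome 12, 83794034 to 83921942) encodes an endocytic adaptor that antagonizes NOTCH and is inherited by one daughter cell in asymmetric divisions. Of the libraries without Dox, replicates 4, 5 and 6 had 3, 0 and 1 counts, and of those given Dox, replicates 10, 11 and 12 had 0, 0 and 17. All but Dox replicate 12 were at or under the floor of 3 counts, and Numb was not tested. No statement on its direction can be made from these counts. In the GENCODE M21 annotation 1 other gene shares exon bases with Numb, Gm46367 on the opposite strand over 166 bases, none of them within 2000 bases of the 3′ end of the gene. Whether the counting used strand is not given in the sources used here.

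Numbl (Entrez gene 18223, chromosome 7, 27258438 to 27282150) encodes the NUMB-like paralog. The libraries without Dox had 14, 13 and 12 counts, or 2.09, 2.63 and 2.03 CPM, and those given Dox had 0, 0 and 2 counts, or 0, 0 and 0.264 CPM. No fold is given, since counts this low lie under the most frequent low count of each Dox library. The edgeR test gave an adjusted p-value of 0.0214, which is a description because Numbl entered the test through its high group. The call was lost without a low-count filter (adjusted p = 0.0991 by edgeR) and with limma-voom and group weights (adjusted p = 0.0628). It was lost with single libraries left out as well: in the group without Dox, leaving out replicate 4, 5 or 6 gave adjusted p-values of 0.117, 0.137 and 0.0911, and leaving out Dox replicate 10 gave 0.0699. When each group's counts were divided by its ratio of variance to mean, neither Numbl nor Numb reached the filter. The within-library ratio of Numbl to Numb is not read here, since both genes had 0 counts in Dox replicates 10 and 11 and the ratio there is set by the 0.5 added to each count. A GENCODE M21 transcript, Gm44641, shares 85 exon bases with Numbl on the same strand.

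Aak1 (Entrez gene 269774, chromosome 6, 86849274 to 87003227) encodes a kinase that phosphorylates the clathrin adaptor AP2 and NUMB. It measured 56.9, 58.0 and 48.0 CPM without Dox and 84.9, 54.1 and 49.4 CPM with Dox. Replicate 10 stood above the other Dox libraries, which lay within the range of the group without Dox. The log2 fold change was 0.21 ± 0.24 (SE, 95% interval -0.32 to 0.74, adjusted p = 0.501 by edgeR), and it was -0.09 without Dox replicate 10. Removing the length trend turned it to -1.03 with an adjusted p-value of 0.0108 (edgeR). The longest annotated Aak1 transcript has 19341 bases, the most of any member.

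Fbxw7 (Entrez gene 50754, chromosome 3, 84814990 to 84979198) measured 64.6, 74.2 and 65.6 CPM without Dox and 82.2, 79.8 and 56.1 CPM with Dox. The groups overlapped, with Dox replicates 10 and 11 above and replicate 12 below all libraries without Dox. Its means of 68.1 ± 5.3 and 72.7 ± 14.4 CPM (n = 3 per group, SD) differed by a log2 fold change of 0.09 ± 0.20 (SE, 95% interval -0.35 to 0.54, adjusted p = 0.727 by edgeR). Both ends of that interval lie nearer 0 than the log2 fold changes of Notch1 and Myc, its substrates, given further on. Its sign changed in 5 alternatives, in all of which it lay between -0.10 and -0.0014.

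**Figure D2:**
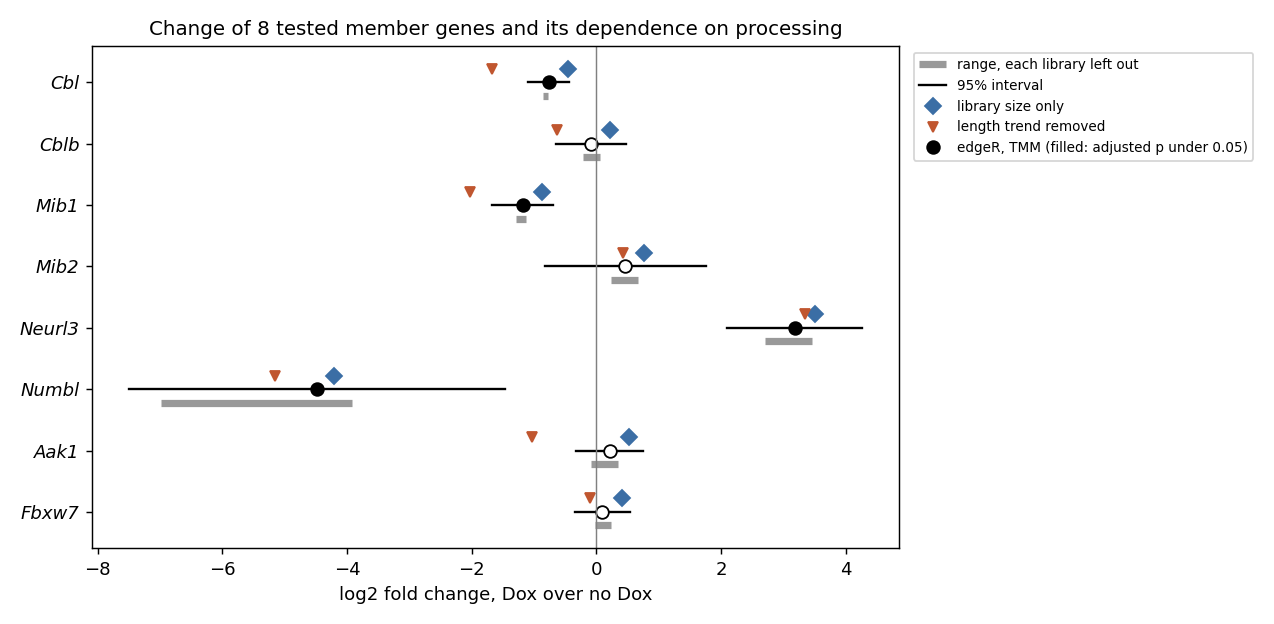
Log2 fold change (Dox over no Dox, horizontal axis) of the 8 tested members with 95% intervals (black lines), filled where the adjusted p-value was under 0.05; diamonds and triangles show 2 other ways of processing and grey bars the range when each library was left out. Cbl and Mib1 stay below 0 and Neurl3 above 0 throughout, Aak1 changes side with the length trend removed, and Numbl has the widest interval. The position of Numbl is a fitted value that is not read as a size, since its Dox counts were 0, 0 and 2.

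The dependence on transcript length touches several members. Among tested genes with an annotated length (85.0% of them), the median log2 fold change went from -0.68 in the quartile with the shortest transcripts, up to 2245 bases, to 0.51 in the quartile with the longest, 4902 bases and more. Cbl (11372 bases), Mib1 (10231 bases), Numbl (8511 bases), Cblb (6648 bases) and Aak1 belong to the longest quartile. The log2 fold changes of Cbl and Mib1 were -0.76 and -1.18 in that quartile. Neurl3, with 2598 bases, changed little with the length trend removed (3.35).

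Genes whose values over the 6 libraries lay nearest to those of a member were taken for the 2 members with the lowest adjusted p, as the root mean square difference of centred log2 CPM among tested genes of like abundance. Nearest to Neurl3 were Retnlg (0.18), a secreted protein gene of neutrophils, Dmd (0.21) and Gucy1a2 (0.23), out of 4846 candidates. Nearest to Mib1 were Cpt1a (0.076), Emc8 (0.084) and Obi1 (0.086), out of 4523. With 2 groups in 6 libraries, likeness of this kind mostly reflects a similar difference between the groups.

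Marker genes of cell types moved with the groups as well. The labels name leukaemia cells and give no lineage for them. T cell markers were lower with Dox in 12 of 14 genes (edgeR, adjusted p under 0.05), and their summed level was 2960 to 3260 CPM without Dox and 314 to 337 CPM with Dox. B cell markers were higher in 10 of 10 genes, with sums of 30.6 to 37.0 and 1860 to 1950 CPM. Neutrophil markers were also higher in 10 of 10 genes, with sums of 53.6 to 69.1 and 2260 to 2410 CPM, and 1 of them, Ly6g, was at 0 counts throughout the group without Dox. Of 11 monocyte and macrophage markers 3 were higher and 3 lower (454 to 548 and 578 to 728 CPM). Among 6 NK cell markers, 3 were tested and 2 were higher, and their sums reached only 3.05 to 6.28 and 16.3 to 27.5 CPM. Erythroid markers were higher in 4 and lower in 2 of 9 genes, with sums of 94100 to 104000 CPM without Dox and 133000 to 143000 CPM with it. Stromal and endothelial markers were higher in 4 and lower in 2 of 9 (195 to 221 and 259 to 363 CPM). All 7 sums were without overlap between the groups, T cell markers lower and the other 6 higher with Dox, and with 2 groups each member's change goes with each of these shifts. The part of these cell types in the members' changes was not tested, and in bulk RNA fewer cells of a type and less RNA per cell cannot be told apart.

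**Figure D3:**
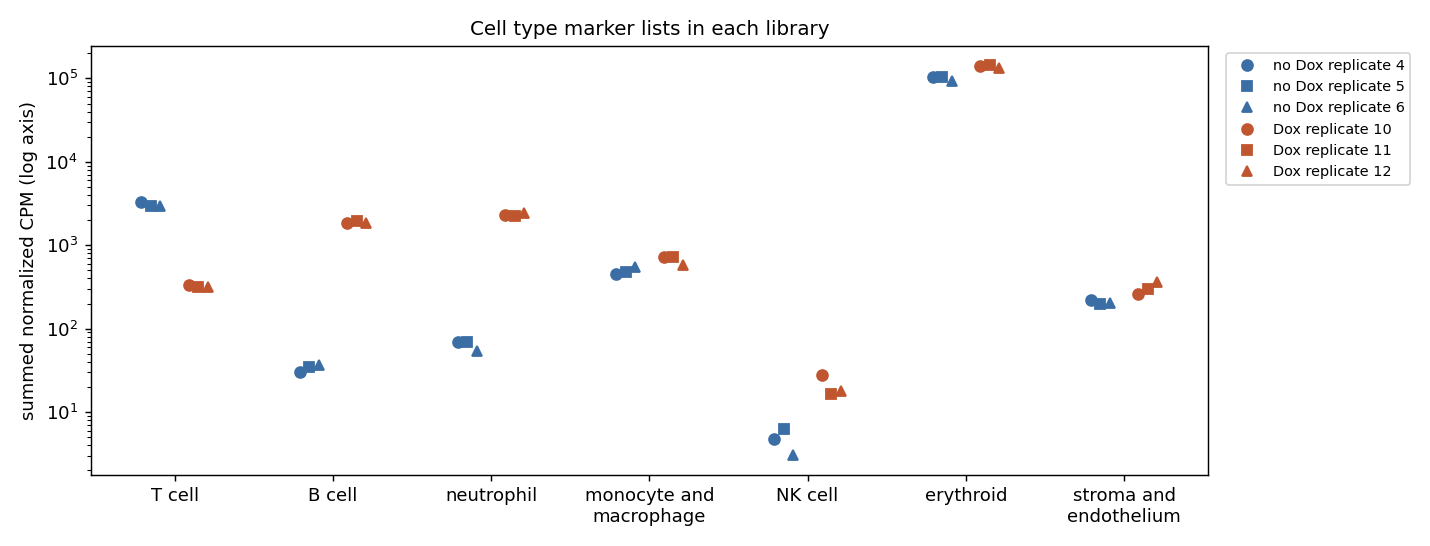
Summed normalized CPM (log axis) of 7 cell type marker lists in each library without Dox (blue) and with Dox (orange). T cell marker sums are lower and B cell and neutrophil marker sums higher in all Dox libraries, and the groups come closest in the monocyte and macrophage list, with 548 CPM in replicate 6 without Dox and 578 CPM in Dox replicate 12.

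The genes that work with the members were described from 8 lists of 87 genes, of which 78 were tested. With Dox 17 were higher, 23 were lower and 38 did not pass the test (edgeR, adjusted p under 0.05), and their median log2 fold change was -0.11, beside 0.07 over all tested genes. The share called in each direction over all tested genes, 23.6% higher and 22.1% lower, is the background for these counts and for those of each list. With replicate 4 of the group without Dox left out these counts were 11 higher and 14 lower, and with its replicate 5 left out they were 11 and 15. Calls over all tested genes fell as well, from 6438 of 14110 to 4862 of 15576 and 4794 of 15676 in these fits. With scaling by library size only the balance turned, to 21 higher and 14 lower, and 64.3% of all genes called were higher. With the length trend removed 14 were higher and 22 lower. The log2 fold changes of single companion genes and the list medians that follow are given without that removal.

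Of 14 partners of CBL ligases 3 were higher and 7 lower. Syk, a kinase of B cell and myeloid receptors and a CBL target, rose from 11.3 ± 0.93 to 160 ± 32 CPM (n = 3 per group, SD, log2 fold change 3.82 ± 0.23 (SE), edgeR adjusted p = 2.58e-06). Zap70, its relative in T cells, fell by 2.52 on the log2 scale, from 45.8 ± 2.0 to 7.97 ± 1.8 CPM. The phosphatase-like gene Ubash3b, whose product binds CBL, rose by 2.49 (10.5 ± 2.2 to 59.2 ± 9.0 CPM). Sh3kbp1, the gene of CIN85, an adaptor that links CBL to endocytosis, fell by 1.99 on the log2 scale (308 ± 15 to 77.6 ± 6.1 CPM). These 3 genes had adjusted p-values of 8.89e-06 to 5.7e-05 (edgeR).

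The core of the SCF ligase in which FBXW7 works, with the enzymes of its NEDD8 cycle, was lower for 5 of 9 genes (median log2 fold change -1.15). Skp1, the linker between F-box proteins and the cullin, fell by 2.19 on the log2 scale (92.5 ± 4.8 to 20.2 ± 9.1 CPM, n = 3 per group, SD). Rbx1, the RING subunit, fell by 1.56 (131 ± 18 to 44.4 ± 7.9 CPM). The scaffold gene Cul1 was 128 ± 7.3 and 121 ± 12 CPM and did not pass the test (adjusted p = 0.695 by edgeR).

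RNAs of known FBXW7 substrates were lower for 5 and higher for 1 of 9 tested genes (median -1.31). Myc fell by 3.89 on the log2 scale (123 ± 14 to 8.24 ± 1.0 CPM, n = 3 per group, SD, adjusted p = 1.87e-06 by edgeR), and Notch1 fell by 3.21 (113 ± 5.7 to 12.2 ± 2.0 CPM, adjusted p = 3.25e-06). Mcl1, a survival gene of the BCL2 family, rose by 1.04 (139 ± 2.8 to 286 ± 34 CPM, adjusted p = 0.000464). The cyclin genes Ccne1 and Ccne2 had log2 fold changes of -0.30 and -0.33 with adjusted p-values of 0.362 and 0.194 (edgeR). FBXW7 acts on proteins, which were not measured here.

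AAK1 and NUMB act in clathrin-mediated endocytosis. Of 22 tested genes of this route 9 were higher and 3 lower (median 0.41). Among the 8 genes for subunits of clathrin and AP2 themselves, a division made after the values were seen, 1 was higher and 2 were lower (median -0.27), against 8 and 1 of the other 14 (median 0.67). Ap2a2 was the subunit gene that rose, by 1.09 on the log2 scale, and Ap2s1 and Cltb were those that fell. The scaffold genes Itsn1 and Itsn2 rose by 2.16 and 1.64 on the log2 scale (27.3 ± 4.2 to 123 ± 12 CPM and 89.4 ± 5.9 to 279 ± 87 CPM, n = 3 per group, SD). Cltb, a clathrin light chain, fell by 1.49 (23.8 ± 1.7 to 8.42 ± 0.96 CPM), and Picalm, a clathrin assembly gene, fell by 0.67 (103 ± 7.3 to 64.8 ± 16.4 CPM). By edgeR, Itsn1 had the lowest adjusted p of the 4, 2.22e-05, and Picalm the highest, 0.0271. The AP2 subunit gene Ap2m1, whose product AAK1 phosphorylates, was 53.4 ± 6.5 and 40.6 ± 10.8 CPM and did not pass (adjusted p = 0.214). The kinases of the AAK1 family, Gak, Bmp2k and Stk16, did not pass either, with log2 fold changes of 0.19, 0.48 and 0.04.

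Of 8 relatives of the member ligases 4 were tested, and Neurl4 passed, rising by 1.42 on the log2 scale (10.6 ± 4.4 to 28.6 ± 8.4 CPM, n = 3 per group, SD, adjusted p = 0.0116 by edgeR). Of the other Neuralized genes, Neurl1a had at most 13 counts and Neurl2 at most 17 in any library, and Neurl1b did not pass (adjusted p = 0.905 by edgeR). Among 10 tested NUMB partners 1 was higher and 2 were lower. Ehd4, an endosome recycling gene, rose by 0.75 (53.1 ± 4.5 to 89.1 ± 19.8 CPM), and Prkci, the atypical kinase of the polarity complex that phosphorylates NUMB, fell by 1.17 (15.6 ± 2.5 to 6.91 ± 2.2 CPM). Among 7 genes of deubiquitination tied to NOTCH traffic, Usp8 rose from 52.2 ± 8.4 to 105 ± 35 CPM, Usp9x rose by 0.63 on the log2 scale, and Eif3f fell by 2.01 on the log2 scale (233 ± 5.9 to 58.1 ± 13.9 CPM, adjusted p = 3.69e-05 by edgeR). Usp12, a deubiquitinase of NOTCH, had a log2 fold change of 0.18 (adjusted p = 0.563).

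**Figure D4:**
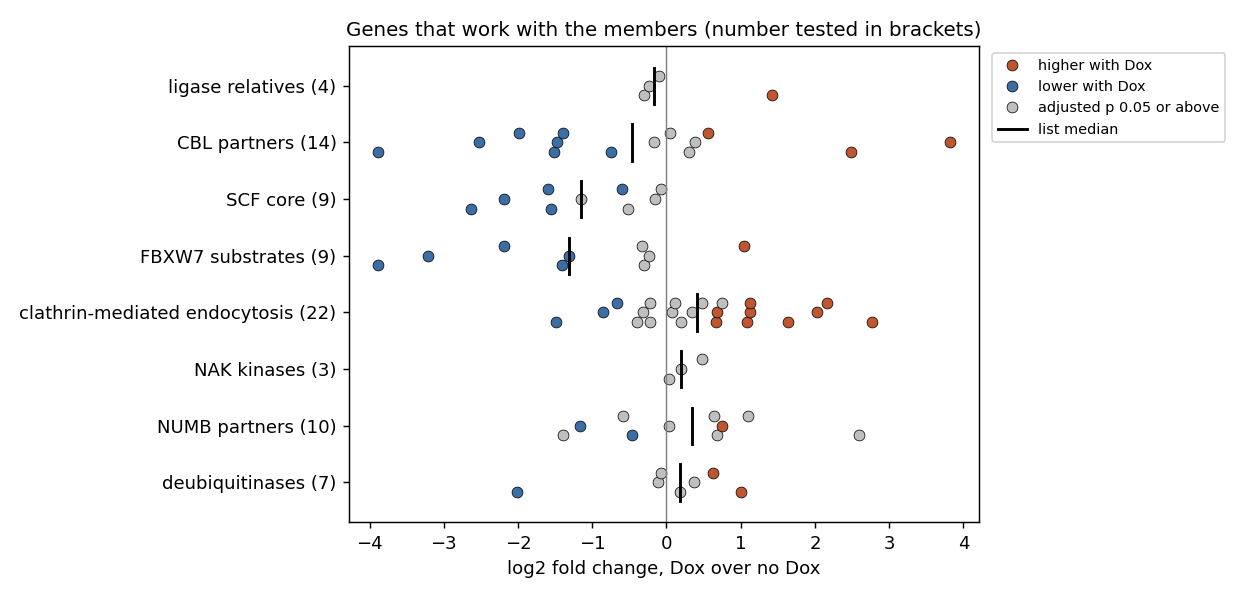
Log2 fold change (Dox over no Dox, horizontal axis) of 78 tested genes that work with the members, 1 row per list; orange and blue points passed an adjusted p-value of 0.05, grey points did not, and black ticks are list medians. Medians run from -1.31 for FBXW7 substrates to 0.41 for genes of clathrin-mediated endocytosis.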

How the data were processed

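RNA was measured in 6 spleen libraries, 3 without Dox and 3 with Dox, grouped by title. Libraries were made with QuantSeq, a kit that reads mRNA 3′ ends, per the labels' protocols, so no scaling by length was applied. Raw, unnormalized counts per Entrez gene were deposited in 1 table. STAR, featureCounts and build GRCm38 are named by the submitters' processing notes. Versions, strand setting, treatment of shared reads and any molecular identifiers are not given in the sources used here.

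Symbols came from RefSeq (GRCm38.p6) for 96.5% of 40808 IDs, and 1 of 166 list entries (Ahsp) had no match. The test was that of edgeR 4.0.16 (R 4.3.3): filterByExpr (minimum count 10, minimum total 15), TMM factors, and the quasi-likelihood F-test with Dox as the only term, adjusted over all tested genes. Standard errors are the absolute log2 fold change over the square root of F. All members were named, and in each companion list up to 2 genes per direction with the lowest adjusted p and groups that did not overlap. Of these, 1 gene is not reported here. Cul1, Ap2a2, Ap2m1, Ap2s1, Ccne1, Ccne2, Gak, Bmp2k, Stk16, Neurl1a, Neurl1b, Neurl2 and Usp12 were named after their values were seen. Members and lists were chosen with earlier results of these data known. Promoter matches were counted in the 250 bases before each RefSeq start, with motifs chosen after the members' changes were seen, and the NF-kB type motif was shortened by its last base after its match was seen. On simulated counts (13487 genes) the test called 21.9% of 96 genes changed by 1 and 58.7% of 92 genes changed by 2 on the log2 scale. It also called 5 of 13299 unchanged genes. The simulation gave both groups the same dispersion and changed few genes. In the data 45.6% of genes were called and the variance-to-mean ratio was 4.69 without Dox and 15.6 with Dox. These shares therefore check the code and do not give the power or the error rate of this comparison. Alternatives used other scaling, filters, thresholds and libraries, DESeq2 1.42.0, limma-voom (limma 3.58.1), and a length trend from GENCODE M21 transcripts.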

Additional observations from a re-analysis of the deposited data

How the results depend on the processing

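No paired analysis was possible because replicates 4, 5 and 6 have no like-numbered partner among 10, 11 and 12. Cbl, Mib1 and Neurl3 kept their direction and their side of the threshold in each alternative that tested them (18, 18 and 17), although Neurl3 passed the low-count filter only through its high group. Division of counts by their group's ratio of variance to mean was chosen after seeing the data. With at least 10 counts in every library, 2 members were called and 0 of them higher, since that filter removes Neurl3 and Numbl. That fit called 5292 of 10131 genes, beside 6438 of 14110 in the main fit. With the length trend removed 5 members were called, 4 of them lower, since Aak1 was added, and 6073 of 14110 genes were called. With each library left out in turn, 3 to 4 members were called, 1 higher and 2 to 3 lower. In the same fits 11 to 19 companion genes were higher and 14 to 25 lower. Calls over all genes ran from 4794 to 7025 in these fits, of 14800 to 15676 tested. An adjusted p under 0.01 left 11 companion genes higher and 13 lower, as a stricter threshold must, with 4396 of 14110 genes called. Scaling by library size only gave 21 higher and 14 lower, where the median of all genes had shifted up by 0.31. That scaling also raised the share of higher genes among all those called from 51.6% to 64.3%. With 1 count added or a library left out, the differences in paralog log2 ratio ran over 0.53 to 0.85 for Cblb to Cbl and 1.33 to 1.92 for Mib2 to Mib1. These shifts were less than the spread between libraries. With 3 libraries per group, leaving 1 out cannot move them by more than that, so this is no test of their stability.

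Numbl lost its call in 7 of 16 alternatives. The sign of Cblb reversed to 0.0089 with upper-quartile factors, 0.22 with library size only, 0.03 with the filter of 10 counts in every library and 0.06 without Dox replicate 11, and with single libraries left out it ran from -0.22 to 0.06. Aak1 reversed to -1.03 with the length trend removed and -0.09 without Dox replicate 10 (-0.09 to 0.34 over single libraries left out). Fbxw7 reversed to -0.04 without a low-count filter, -0.10 with the length trend removed, -0.02 without replicate 6 of the group without Dox, -0.03 without Dox replicate 10 and -0.0014 without Dox replicate 11 (-0.03 to 0.23 over single libraries left out). Except for Aak1 without its length trend, these reversals were of changes that did not pass the test before or after. The cause of the reversals was not tested. Counts were at most 17 for Numb, 14 for Numbl and 64 for Mib2 in any library, which limits the precision of their values. Whether deeper libraries would resolve them was not tested.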
